A study of Homo sapiens with 4 samples.

Results

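A set of 10 genes of cholesterol efflux and of the liver X receptors (LXRs) were followed in SHMT2-knockdown colorectal cancer cells. They are the efflux transporters ABCA1 and ABCG1, the receptors NR1H2 and NR1H3, their partner RXRA, the corepressor NCOR1, and the LXR targets MYLIP, SREBF1, LPCAT3 and SMPDL3A. All 10 symbols were found among the 26364 genes of the deposited count table, and all 10 were among the 14024 genes tested. The genes were picked for their known roles, and the list was selected on results already seen in these 4 libraries, in which the efflux transporters were higher after knockdown. Knockdown-against-control values of the 10 genes are therefore a description: no p is printed for them, and counts of calls among them test nothing.

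The cells were SW480 and SW620, human colorectal cancer lines established from a primary tumor and from a lymph node metastasis of the same patient. Each line gave 1 SHMT2-knockdown library and 1 control library. SHMT2 is the mitochondrial serine hydroxymethyltransferase, which passes a one-carbon unit from serine to folate. The knockdown was made with an shRNA from a lentiviral vector that doxycycline switches on. The labels call the other libraries only control, the study's text calls the cells control shRNA cells, and whether these cells were given doxycycline is not given in the sources used here, so the drug and the knockdown cannot be told apart. How many cultures went into a library is not given in the sources used here. The 2 cell lines are the only replicates of the knockdown.

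LXRs are nuclear receptors that sense oxysterols, the oxidized products of cholesterol. They bind DNA as a pair with RXR, on repeats of a short half-site, and switch from corepressors such as NCOR1 to coactivators when a ligand is bound. Their targets move cholesterol out of the cell (ABCA1, ABCG1), limit its uptake (MYLIP, also called IDOL) and turn on fatty acid and phospholipid synthesis (SREBF1, LPCAT3). The pathway is best known from macrophages, liver and intestine.

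The promoter of ABCA1 is shown because it carries the repeat to which the LXR and RXR pair is known to bind. RefSeq promoter windows, from 250 bases before to 50 bases after an annotated start on GRCh38.p14, were found for 8 of the 10 genes and not for ABCG1 and SMPDL3A. The windows were searched on both strands for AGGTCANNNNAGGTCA, a direct repeat with a spacer of 4 bases (DR4), with at most 1 mismatch in each half-site. Of the 13 windows of these 8 genes, 1 held a match, that of ABCA1. Over all 35114 windows searched, 1.38% held one. Sequence outside the windows was not searched, so a gene without a match here may hold the repeat elsewhere. The limit on mismatches was set with the ABCA1 element in mind. In the ABCA1 window (chr9:104928106-104928405, minus strand), the match lies 69 to 54 bases before the start, on the strand opposite to the gene, and reads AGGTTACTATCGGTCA on its own strand. Below, the DR4 match is in capitals.

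ABCA1: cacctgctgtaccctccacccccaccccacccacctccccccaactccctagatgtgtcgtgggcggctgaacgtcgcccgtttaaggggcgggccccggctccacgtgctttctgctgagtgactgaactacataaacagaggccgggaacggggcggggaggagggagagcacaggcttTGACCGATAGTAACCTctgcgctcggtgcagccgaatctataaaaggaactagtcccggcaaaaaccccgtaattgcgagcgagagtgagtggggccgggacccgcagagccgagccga

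The ABCA1 window also held 1 E-box, CACGTG, 147 to 142 bases before the start, a motif found in 7.26% of all windows and in no window of the other 7 genes. GC boxes, GGGCGG on either strand, were found in 9 of the 13 windows and for 7 of the 8 genes, against 15785 of all 35114 windows. The MYLIP window held 3 GC boxes but neither of the other motifs. A match to these letters is a description of the sequence, and no binding was measured.

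**Figure D1:**
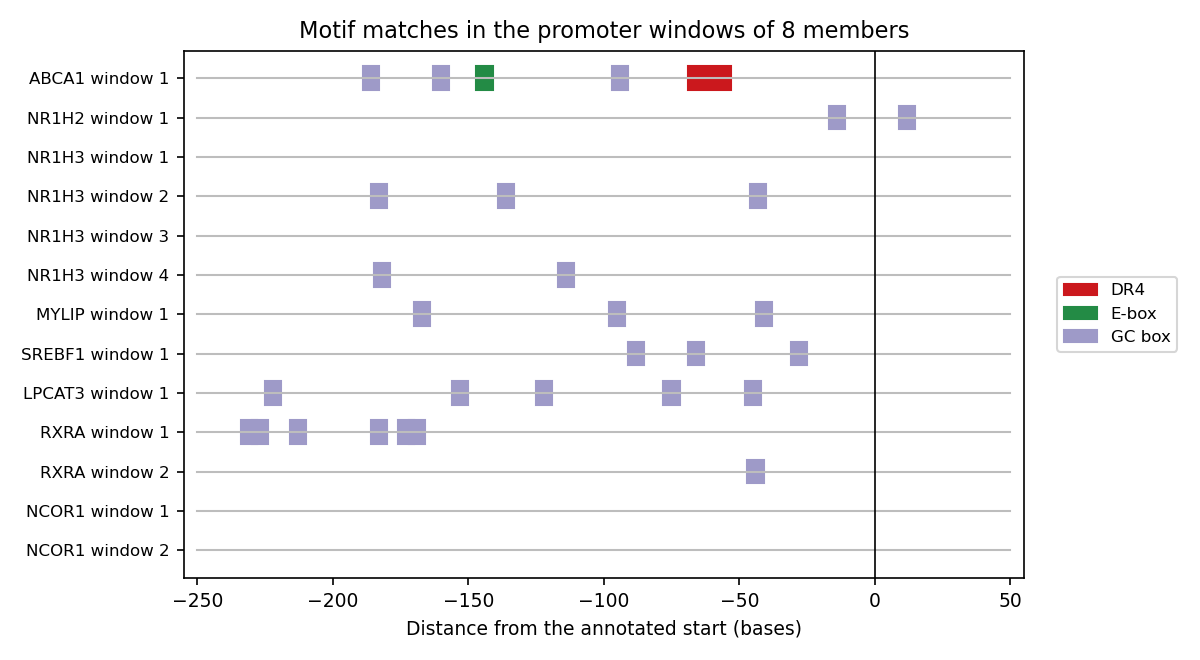
Motif matches in the 13 promoter windows of 8 genes, plotted by distance from the annotated start in bases. Each row is a window, and the DR4 match (red) and the E-box (green) are both in the ABCA1 window, while GC boxes (violet) are spread over the windows of 7 genes.

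The libraries held 5530129 to 13774288 counts. Relative to the control of its own line, the knockdown library had 0.671 times the counts for SW480 and 2.49 times for SW620. SHMT2 itself had 2661 counts in control and 205 in knockdown SW480 cells, and 3751 and 640 in SW620 cells, a log2 fold change of -3.54 (standard error 0.12). Of 12 colorectal epithelial markers, 8 passed the filter on low counts, with EPCAM, KRT8, KRT18 and KRT19 abundant in every library. KRT20, CDX1, GPA33 and LGALS4 had 0 to 15 counts. KRT8 and KRT18 were lower and CDH1 was higher after knockdown at an adjusted p under 0.05. VIL1, the microvillus protein villin, had 2 and 1 counts in SW480 and 2029 and 5105 counts in SW620. Of 10 macrophage markers, CD163, MSR1 and TYROBP had no count in any library, and the list summed to 5.58 to 12.7 CPM (counts scaled to a common library size with TMM factors). That sum was lower in the knockdown than in the control of both lines, and most of it was CD68, at 10.8 and 5.13 CPM in SW480 and 4.95 and 4.53 CPM in SW620. The other markers had 0 to 7 counts, and the part of such cells in the results was not tested.

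The 10 genes differed widely in level. Per kilobase of annotated exon, the mean over the 4 libraries was highest for SREBF1 at 24.7 CPM per kb, followed by LPCAT3 at 19.6, NCOR1 at 11.2, NR1H2 at 7.40, RXRA at 5.62 and NR1H3 at 4.01. MYLIP had 3.22, SMPDL3A 1.24, ABCG1 0.664 and ABCA1 0.445 CPM per kb. Neighbors in this order often overlapped across libraries. The place of NCOR1 rests on SW620, at 19.7 and 17.5 CPM per kb, since in SW480 it had 3.60 and 4.06, below NR1H2 and RXRA. NR1H2 spanned 6.55 to 8.38 CPM per kb and RXRA 4.57 to 6.70, and the ranges of ABCG1 (0.119 to 1.81) and ABCA1 (0.162 to 0.731) overlapped too. SREBF1 and LPCAT3 overlapped as well, since LPCAT3 reached 26.4 CPM per kb in knockdown SW620 cells, within the SREBF1 range of 22.7 to 26.8. Raw counts ran from 7 for ABCG1 in control SW480 cells to 3632 for NCOR1 in knockdown SW620 cells. In both control libraries, 9 of the 10 genes had at least 10 counts, and the exception was ABCG1.

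**Figure D2:**
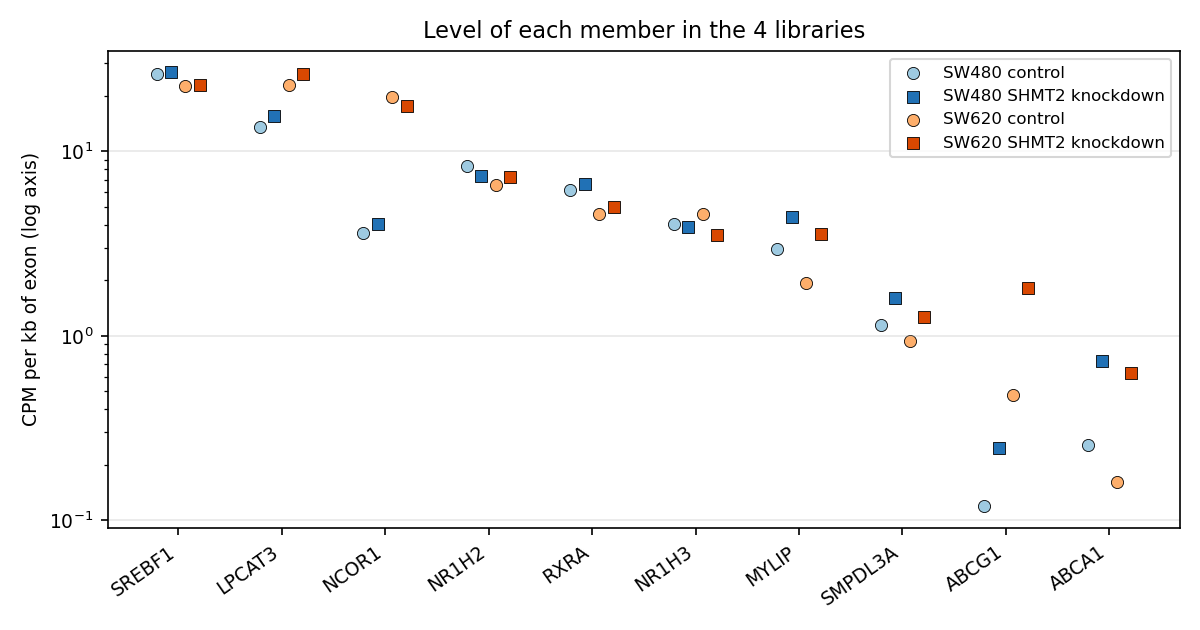
Level of each gene in the 4 libraries, in CPM per kb of exon on a log axis. Circles are control and squares are SHMT2 knockdown libraries; the efflux transporters ABCG1 and ABCA1 have the lowest mean levels, and their squares lie above the circles of the same line.

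The comparison of SHMT2-knockdown with control cells asked how the transcriptome changed when SHMT2 was lost. ABCA1 (chromosome 9, 104781002 to 104928237 on GRCh38) moves cholesterol and phospholipid onto lipid-poor apolipoprotein A-I. It had 28 counts in control and 55 in knockdown SW480 cells, and 10 and 96 in SW620 cells, or 2.92 and 8.30 CPM and 1.83 and 7.14 CPM. Both knockdown libraries were above both control libraries. The ratio of knockdown to control was 2.85 in SW480 (exact 95% binomial interval 1.77 to 4.66) and 3.89 in SW620 (2.03 to 8.38). These intervals cover counting error only and say nothing of the spread between cultures. The 2 intervals overlapped, and whether the lines differ could not be tested, since each line and condition has only 1 library. The fit with both lines gave a log2 fold change of 1.68 (standard error 0.36), which ranked 3 among the rises of the 14024 genes tested.

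ABCG1 (chromosome 21, 42199689 to 42297244) passes cholesterol to mature HDL particles. Its counts were 7 in control and 10 in knockdown SW480 cells, and 16 and 149 in SW620 cells. As CPM these were 0.729 and 1.51 in SW480 and 2.93 and 11.1 in SW620. The knockdown library was the higher one within each line, but knockdown SW480 cells stayed below control SW620 cells, so the groups overlapped. The ratio was 3.78 in SW620 (interval 2.25 to 6.78). In SW480 it was 2.07 with an interval of 0.711 to 6.41, which includes 1, so a change in SW480 alone was not detectable at this depth. The fit with both lines gave 1.68 on the log2 scale (standard error 0.42), at rank 4 among the rises. Within single lines, ABCA1 ranked 30 in SW480 and 27 in SW620, while ABCG1 ranked 272.5 in SW480, where it was tied, and 26 in SW620. Both genes were listed with their rise known, so nothing is read from any of these ranks.

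ABCA1 and ABCG1 were the 2 genes of the 10 called at an adjusted p under 0.05 in the fit over all genes, both higher, and 0 were called lower. At an unadjusted p under 0.05, MYLIP was added, and 0 were lower. In the same fit 0.492% of all genes tested were called higher and 1.17% lower. Since the list was drawn up with this contrast known, nothing is read from the calls or from their share. The calls rest on the edgeR model that takes the line into account: 0 of the 10 genes were called without a term for the line, with the DESeq2 Wald test, or with all libraries thinned to the smallest total. ABCA1 then had 18 and 45 counts in SW480 and 10 and 40 in SW620, and ABCG1 had 5 and 7 and 16 and 50, so the direction within each line was kept.

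The targets other than the transporters had smaller fold changes. MYLIP (chromosome 6, 16129125 to 16148248) encodes a ubiquitin ligase that limits lipoprotein uptake. It had 86 and 89 counts in control and knockdown SW480 cells and 32 and 145 in SW620 cells, or 8.95 and 13.4 CPM and 5.87 and 10.8 CPM. Both knockdown libraries lay above both controls. The ratios were 1.50 (interval 1.10 to 2.04) and 1.84 (1.25 to 2.79), and the log2 fold change was 0.71 (standard error 0.26). SMPDL3A, a secreted phosphodiesterase related to acid sphingomyelinase, had 26 and 25 counts in SW480 and 12 and 40 in SW620. Its ratios of 1.39 (0.772 to 2.51) and 1.35 (0.695 to 2.83) both had intervals that include 1. At 12 to 40 counts a change of this size was not detectable.

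LPCAT3 puts polyunsaturated acyl chains into membrane phospholipids. It had 612 and 488 counts in SW480 (63.7 and 73.6 CPM) and 592 and 1680 in SW620 (109 and 125 CPM). The ratios of 1.16 (1.02 to 1.30) and 1.15 (1.05 to 1.27) were nearly equal, and the log2 fold change was 0.21 (standard error 0.13). In the GENCODE 29 annotation, 3100 of its 4725 exon bases are shared with EMG1 on the opposite strand, and the use of strand in counting is not given, so part of these counts may belong to EMG1.

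SREBF1 encodes SREBP-1, the transcription factor of fatty acid synthesis, whose 1c form is the one LXR induces. The table does not separate the forms. It had the highest mean level per kb of the 10 genes, though LPCAT3 was above it in both SW620 libraries, and it showed almost no difference after knockdown. SREBF1 had 2024 and 1427 counts in SW480 (211 and 215 CPM) and 994 and 2470 in SW620 (182 and 184 CPM). It shares 556 of its 8030 exon bases with RAI1 on the opposite strand, and the part of RAI1 in its counts was not tested. The ratios were 1.02 (0.954 to 1.09) and 1.01 (0.936 to 1.09), so a change in either line beyond these bounds would exceed the counting error. The microRNA genes MIR33A and MIR33B, which lie within SREBF2 and SREBF1 and whose products are known to lower ABCA1, had no count in any library, though the kit is not made for short RNAs.

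The receptors had small fold changes. NR1H3, or LXR alpha, had 177 and 117 counts in SW480 (18.4 and 17.6 CPM) and 113 and 214 in SW620 (20.7 and 15.9 CPM). It was the only one of the 10 genes with a lower level in the knockdown of both lines, at ratios of 0.958 (0.752 to 1.22) and 0.768 (0.609 to 0.973), and in SW620 the interval excludes 1 by counting error alone. NR1H3 shares 189 of its 4533 exon bases with ACP2 on the opposite strand, and the part of ACP2 in its counts was not tested. NR1H2, or LXR beta, which is expressed in most tissues, had 302 and 184 counts in SW480 (31.4 and 27.8 CPM) and 134 and 368 in SW620 (24.6 and 27.4 CPM). Its ratios of 0.883 (0.731 to 1.06) and 1.11 (0.911 to 1.37) pointed opposite ways, with both intervals including 1. Per kb, NR1H2 was above NR1H3 in all 4 libraries, at 6.55 to 8.38 against 3.51 to 4.57 CPM per kb.

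RXRA, the partner in the receptor pair, had 659 and 492 counts in SW480 (68.6 and 74.2 CPM) and 276 and 748 in SW620 (50.6 and 55.6 CPM). The ratios were 1.08 (0.960 to 1.22) and 1.10 (0.956 to 1.27). NCOR1 holds histone deacetylases at unliganded receptors. It had 532 and 415 counts in SW480 (55.4 and 62.6 CPM) and 1658 and 3632 in SW620 (304 and 270 CPM). The ratio was 1.13 (0.992 to 1.29) in SW480 and 0.888 (0.838 to 0.942) in SW620, where the interval excludes 1 by counting error alone. Annotated copies of part of NCOR1 (NCOR1P1, NCOR1P2 and NCOR1P3) could share its reads.

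**Figure D3:**
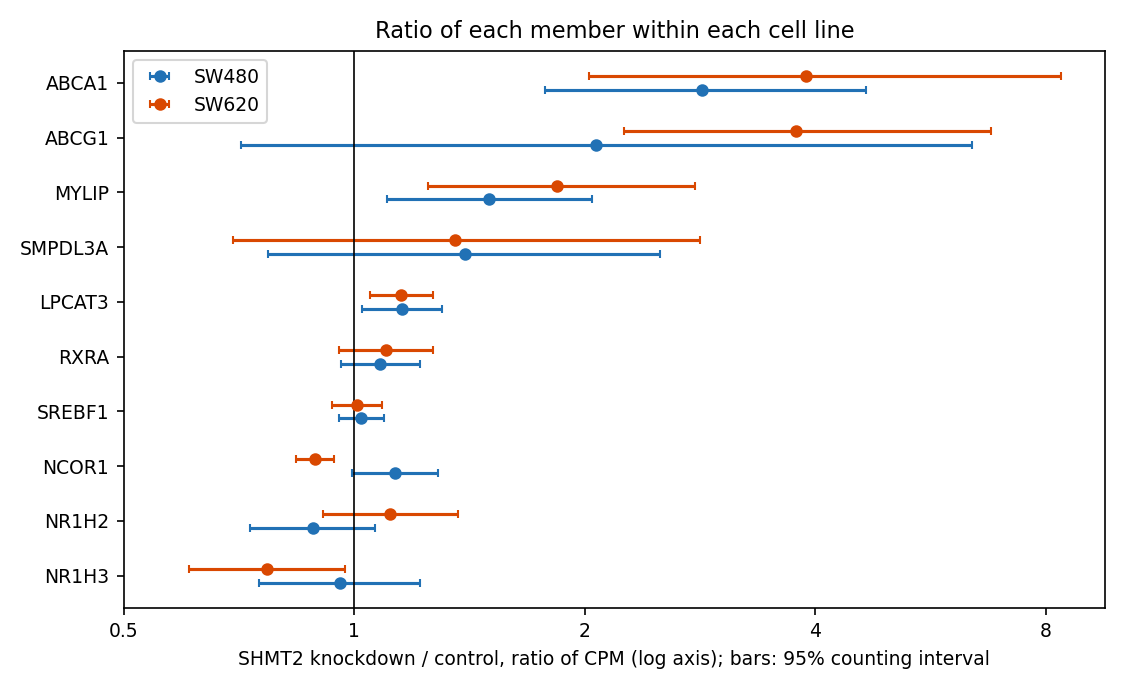
Ratio of SHMT2 knockdown to control within SW480 (blue) and SW620 (orange) for the 10 genes, on a log axis, with exact 95% binomial intervals that cover counting error only. ABCA1, MYLIP and LPCAT3 have intervals above 1 in both lines, ABCG1 in SW620 but not in SW480, and SREBF1 lies at 1.02 and 1.01.

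Of the 10 genes, 7 were higher in the knockdown of both lines and 1 was lower in both, against 27% and 24.7% of all genes tested. Their median was 0.16 on the log2 scale in the fit, 0.19 within SW480 and 0.18 within SW620, beside a median of 0.0075 over all genes tested. For the reason given above these counts describe the list and test nothing.

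The genes whose pattern over the 4 libraries was most like that of ABCA1 were looked up among 11263 others with a mean of at least 50 counts. ABCA1 and ABCG1 themselves have lower means, so genes at their own level were left out. Likeness was the Euclidean distance between centered log2 CPM values over these 4 libraries, and the genes found share the knockdown contrast and depth of the libraries with ABCA1. The nearest was MYLIP, itself one of the 10 genes, at a distance of 0.93, followed by GPCPD1 (0.93) and ADAMTS14 (0.96). The 10 genes were listed with the knockdown contrast known, so nothing is read from MYLIP being nearest. MYLIP ranked 212 of 14024 by the size of its rise over both lines. Nearest to ABCG1 were GPR35 (0.82), ITGB7 (0.94) and FSTL4 (0.99). GPR35 had 16 and 18 counts in SW480 and 27 and 139 in SW620, so it shared the higher level in SW620 as well as the higher level after knockdown.

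More genes differed between the cell lines than between the conditions. SW620 was compared with SW480 in a model that also held the treatment, a contrast on which the list was not chosen, with the knockdown and the control library of a line as its 2 samples. Among all 14024 genes tested, 32.3% were higher and 31.3% lower in SW620 at an adjusted p under 0.05 by edgeR. Of the 10 genes, 3 were higher, 1 was lower and the others did not pass. ABCA1 and SMPDL3A had few counts for such a test. NCOR1 had 55.4 and 62.6 CPM in SW480 and 304 and 270 CPM in SW620. Its log2 fold change was 2.28 (standard error 0.12, edgeR adjusted p = 3.71e-74), and both SW620 libraries were far above both SW480 libraries.

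ABCG1 was higher in SW620 with a log2 fold change of 2.56 (standard error 0.43, edgeR adjusted p = 1.33e-08). The log2 fold change was 1.72 between the control libraries alone and rested there on 7 and 16 counts. The 149 counts in knockdown SW620 cells entered both the contrast between the lines and the rise known when ABCG1 was listed. Its p-value is therefore not independent of how the gene was chosen. ABCA1, in contrast, had a log2 fold change of -0.34 between the lines (standard error 0.34, edgeR adjusted p = 0.385) and did not pass. LPCAT3 was higher in SW620 by 0.77 on the log2 scale (standard error 0.13, edgeR adjusted p = 7.05e-09), with the limit from EMG1 given above. RXRA was lower, at a log2 fold change of -0.43 (standard error 0.13, edgeR adjusted p = 0.00264). With the DESeq2 Wald test the adjusted p of RXRA was 0.0752.

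The remaining genes did not pass between the lines. MYLIP had a log2 fold change of -0.43 (standard error 0.26, edgeR adjusted p = 0.132). SREBF1 was at -0.22 (standard error 0.11, edgeR adjusted p = 0.0797), and in libraries thinned to the smallest total its edgeR adjusted p was 0.0482. NR1H2 was at -0.18, SMPDL3A at -0.32 and NR1H3 at 0.0069, with standard errors of 0.16, 0.42 and 0.20.

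**Figure D4:**
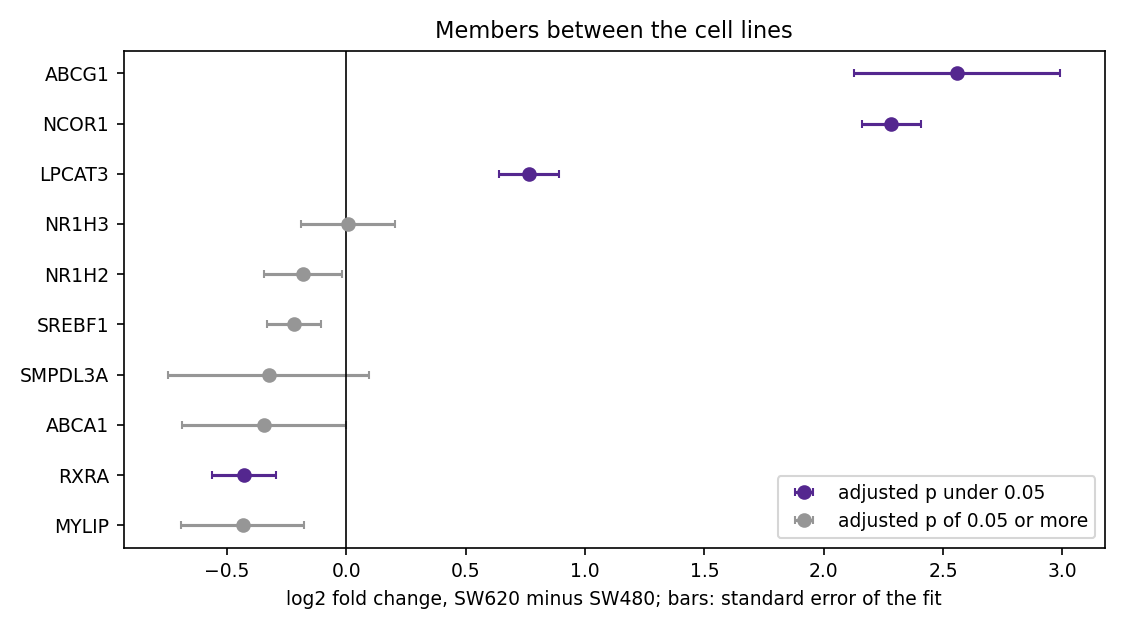
Log2 fold change of the 10 genes between the cell lines, SW620 minus SW480, with the standard error of the fit. Of the violet genes, ABCG1, NCOR1 and LPCAT3 were higher and RXRA was lower in SW620; gray genes had an adjusted p of 0.05 or more.

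Other genes of LXR biology and sterol handling were examined in 6 lists of 96 genes in all, of which 76 passed the filter. Of these 76 genes, 7 were lower and 0 were higher after knockdown at an adjusted p under 0.05 by edgeR, against the 1.17% and 0.492% of all genes given above. At an unadjusted p under 0.05 from edgeR there were 11 lower and 3 higher. The share of all genes at this unadjusted threshold was not counted. Nothing is read from the unadjusted counts here or in the single lists below. The DESeq2 Wald test without independent filtering called 2 lower, SCD and INSIG1, and 0 higher. The median log2 fold change was -0.0030, beside 0.0075 over all genes tested. The lists were written with part of these results known.

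Of 23 further LXR targets, 15 were tested, and 2 were lower. SCD, the desaturase that makes monounsaturated fatty acids, fell from 1673 to 846 CPM in SW480 and from 966 to 531 CPM in SW620 (edgeR adjusted p = 1.59e-19). FASN, the fatty acid synthase, had a log2 fold change of -0.35 (standard error 0.09, edgeR adjusted p = 0.00836), with ratios of 0.645 in SW480 and 0.957 in SW620. FASN was not called with the DESeq2 Wald test (adjusted p = 0.860), with at least 50 counts in 2 libraries or after thinning. Both SCD and FASN are also targets of SREBPs. EEPD1, which LXR induces in macrophages, had a log2 fold change of -0.03, with 0.06 within SW480 and -0.07 within SW620. The sterol transporters ABCG5 and ABCG8, with 0 to 2 counts a library, and the lipoprotein lipase LPL, with no count, were too low to test, and were singled out after their values were seen.

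Of 10 enzymes that make or remove sterols active at LXR, 5 passed the filter and were tested, and 2 were lower. EBP, a sterol isomerase, had a log2 fold change of -0.54 (standard error 0.13, edgeR adjusted p = 0.0040). EBP was not called with DESeq2 without independent filtering, with at least 50 counts in 2 libraries or after thinning. DHCR7, the last enzyme of cholesterol synthesis, was at -0.35 and did not pass (edgeR adjusted p = 0.103), with -0.65 within SW480 and -0.07 within SW620. CH25H and CYP7B1, which make and degrade 25-hydroxycholesterol, had at most 1 count in a library and were likewise singled out afterwards.

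Among 18 genes of sterol uptake, storage and transport that were tested, 2 were lower by edgeR. The DESeq2 Wald test without independent filtering called 0 of them. STARD4, a sterol carrier of the cytosol, had a log2 fold change of -0.67 (standard error 0.17, edgeR adjusted p = 0.00759), with -0.93 within SW480 and -0.41 within SW620. SCARB1, the HDL receptor, was at 0.05 in the fit, with -0.21 within SW480 and 0.31 within SW620. Of 13 genes for SREBP partners and phospholipid acyltransferases, INSIG1 was lower, from 45.9 to 18.4 CPM in SW480 and from 29.5 to 12.6 CPM in SW620 (log2 fold change -1.28, standard error 0.17, edgeR adjusted p = 1.17e-10). INSIG1 keeps SREBPs in the endoplasmic reticulum and is itself induced by them. SREBF2 was at -0.14 and the site 1 protease MBTPS1 at 0.13.

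Of 17 LXR partners and coregulators tested, 0 were called in either direction by edgeR, with 2 lower and 0 higher at an unadjusted p under 0.05 and 0 called by DESeq2. TBL1XR1, a subunit of the NCOR1 complex, was at -0.0064 and the acetyltransferase EP300 at 0.10 on the log2 scale. The other ABCA and ABCG transporters move lipids or drugs. Of 8 tested, 0 were called by edgeR or DESeq2, with 1 higher and 0 lower at an unadjusted p under 0.05. ABCA2 was at 0.10, ABCA7 at 0.02 (0.15 within SW480 and -0.19 within SW620) and ABCA3, the lamellar body transporter of lung surfactant, at 0.51 (standard error 0.16, edgeR adjusted p = 0.0674).

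**Figure D5:**
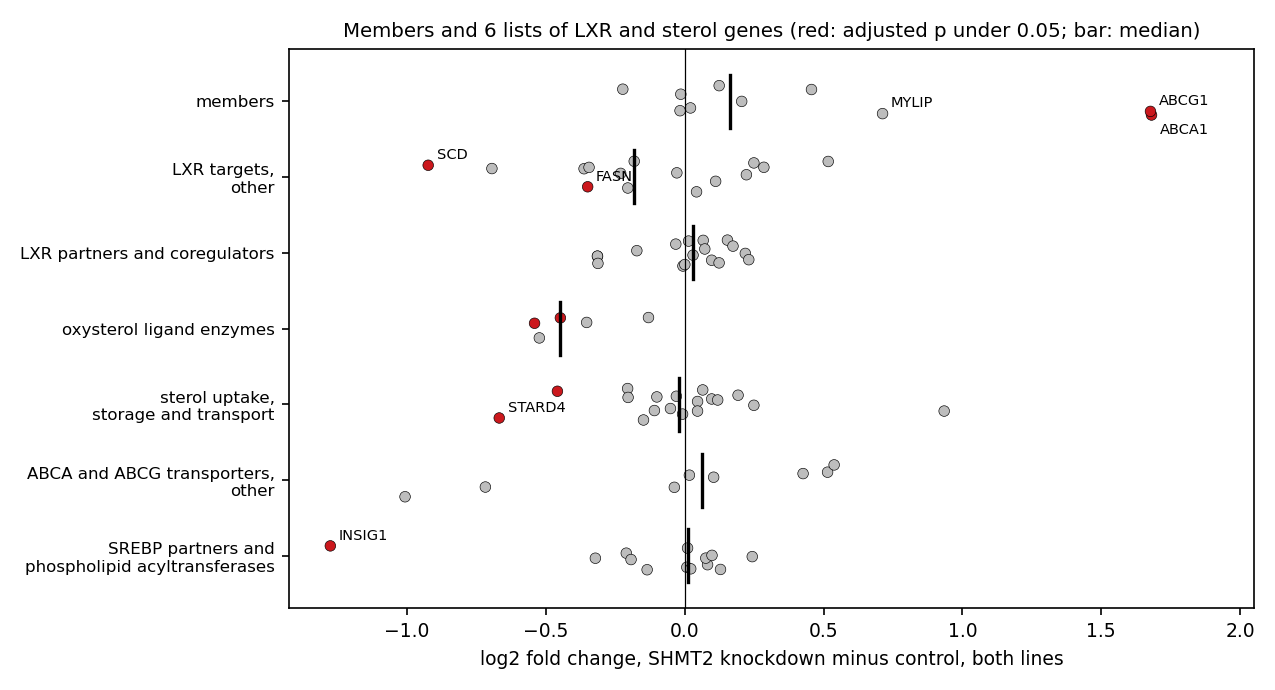
Log2 fold change after SHMT2 knockdown over both lines for the 10 genes and for the tested genes of 6 lists of LXR and sterol genes, with list medians as bars and genes at an adjusted p under 0.05 in red. The calls among the 10 genes, ABCA1 and ABCG1, lie to the right. The 7 calls in the lists lie to the left, with INSIG1 at -1.28 and SCD at -0.92. The 10 genes were listed with this contrast known, and the 6 lists with part of the results known, so the sides test nothing.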

How the data were processed

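RNA of 2 cell lines was sequenced as 4 libraries with the Illumina TruSeq RNA kit, per the labels. The deposited table holds raw counts by gene symbol for all libraries, not normalized. The submitters' processing notes name Bowtie 0.12.2 and the build hg18, with no role, and the paper's methods name a microarray, while the values are whole-number counts. The counting program, its annotation and its strand setting are not given in the sources used here. Names turned into dates were kept in 28 rows.

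A gene was tested if 2 or more libraries held 10 or more of its counts (14024 genes). TMM scaling and edgeR 4.0.16 under R 4.3.3 were used, with a quasi-likelihood F test, cell line and treatment as terms, and p-values adjusted by Benjamini-Hochberg across every tested gene against a threshold of 0.05. The cell line pairs a knockdown with its control. The fit leaves 1 residual degree of freedom, so p-values lean on a spread shared across genes, and they measure only the spread between these samples. A prior count of 2 entered the within-line log2 values. Within-line ratios have exact (Clopper-Pearson) 95% intervals from the binomial share of counts, scaled by effective library size. Alternatives were DESeq2 1.42.0, its size factors, other filters on low counts, thinning to the smallest total, dropping a model term and leaving out a line. The code was tested on simulated data. Gene positions and exon lengths are from GENCODE 29 on GRCh38 and need not match the authors' annotation. Promoter sequences are from RefSeq on GRCh38.p14.

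The members and the gene lists were chosen with earlier results of these data known. The text names all 10 members, SHMT2, the called genes of each list (with its most abundant genes up to 3 where fewer were called) and the 3 genes nearest in pattern to ABCA1 and to ABCG1. Some genes of the lists that this rule names are counted but not reported here.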

Additional observations from a re-analysis of the deposited data

Results flagged for a closer look

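For 2 of the 10 genes the knockdown library was higher in one cell line and lower in the other. For NR1H2 the log2 value was -0.18 within SW480 but 0.15 within SW620, so the first minus the second was -0.33. For NCOR1 it was 0.18 within SW480 but -0.17 within SW620, which differ by 0.35. With 1 library per line and condition neither difference was tested. NCOR1 overlaps AC002553.1 and PIGL on the opposite strand by 188 and 321 of its 15404 exon bases, and the part of these genes in its counts was not tested.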

How the results depend on the processing

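The number of member genes called after knockdown was 2. It was 0 without the cell line as a term (no replicate block), 1 with at least 50 counts in 2 libraries (ABCA1, which passed that filter through its knockdown libraries alone, while ABCG1 left the test), 0 with the DESeq2 Wald test, 0 with the same test without independent filtering, and 0 after thinning. The 7 calls in the 6 lists became 0, 2, 1, 2 and 2 in the same order. Over all genes the 233 calls became 0, 69, 28, 13 and 63. DESeq2's independent filtering gave an adjusted p to 3 of the 10 genes only, and the setting without it was chosen after seeing the data. Without a filter, 183 genes were called, and with DESeq2's size factors 217. Calls between the cell lines numbered 4, and 3 to 5 under the alternatives. Leaving out a line turned the sign of SCARB1 (-0.21 to 0.31), ABCA7 (-0.19 to 0.15) and EEPD1 (-0.07 to 0.06), besides NR1H2 and NCOR1. Values with a changed sign had no call. After thinning these were NR1H2 at 0.026, NCOR1 at 0.053, ABCA7 at -0.020 and EEPD1 at 0.032. With DESeq2, NCOR1 was at 0.0013, ABCA7 at -0.00067 and TBL1XR1 at 0.0020, and TBL1XR1 was also at 0.0020 with DESeq2's size factors. Without a filter ABCA7 was at -0.0036. NR1H3 between the lines was at -0.0072 without the treatment term, -0.032 without a filter, -0.0033 with 50 counts, -0.016 with DESeq2's size factors and -0.014 with DESeq2. The causes were not tested, apart from the smaller number of genes or counts that the filter and thinning set by construction. Low counts limit ABCA1, ABCG1 and SMPDL3A, with 7 to 40 counts in at least 2 libraries each.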

Other observations

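Transporters of the ABCA1 and ABCG1 families differed between the lines. Of the 8 other ABCA and ABCG genes tested, 6 were lower and 1 was higher in SW620 at an adjusted p under 0.05 from edgeR, against the 31.3% and 32.3% of all genes. ABCA4, ABCA12, ABCG2 and ABCG4 passed the filter on low counts through the SW480 libraries alone. Their lower level in SW620 was thus favored by the filter, and nothing is read from the share. Picked after their values were seen, ABCG2 had 38 and 15 counts in SW480 and 0 and 1 in SW620, and ABCA12 had 42 and 41 against 1 and 1.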
